A study of Danio rerio with 7 samples.

Results

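First-intron peaks were the ATAC-seq peaks that the authors' comparison of *kdrl*:GFP+ and *kdrl*:GFP- cells called differential and whose annotation placed them in intron 1 of a RefSeq transcript. Among the differential peaks they were chosen by that annotation alone, but the call of a peak as differential itself used the measured values. They numbered 3612 of 44025 differential peaks (8.20%), or 31.9% of the 11319 that lay in any intron. They belonged to 1624 host genes on 25 chromosomes. The cells were sorted from wild type zebrafish embryos carrying Tg(*kdrl*:GFP)s843, a line in which the *kdrl* promoter drives GFP in endothelium, at 26 to 27 h post fertilisation (hpf), with 40000 to 50000 cells per library. The *kdrl*:GFP+ population was the fraction with higher GFP, and the *kdrl*:GFP- population held cells without GFP from the whole embryo, a mixture of many tissues. Cells with low GFP were left out of the *kdrl*:GFP+ fraction. The labels list 3 libraries of each population and 1 control of genomic DNA from 30000 cells of embryos at 28 to 30 hpf. Each value below is one mean per population, because no value of a single library was analysed here. No spread between libraries and no test can therefore be given, and in a mixed population fewer open cells cannot be told apart from less open chromatin per cell.

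ATAC-seq marks open chromatin through a transposase that inserts sequencing adapters where DNA is not packed into nucleosomes. Open sites inside introns include enhancers, which bind transcription factors and raise transcription of a gene at a distance, and the first intron, next to the promoter and often long in genes of development, is a known location of such elements. In endothelium, ETS factors such as Fli1 are well known to bind enhancers of vascular genes.

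The concentration of a peak is the log2 of the mean normalised read count of a population, and the difference given throughout is the *kdrl*:GFP+ concentration minus the *kdrl*:GFP- concentration, so that a difference of 3 corresponds to 8-fold. Of the 3612 first-intron peaks, 1612 were higher in *kdrl*:GFP+ cells (44.6%, 95% Wilson interval 43.0 to 46.3%, which covers counting error only), beside 44.7% of all differential peaks, and 2000 were lower, beside 55.3%. The interval treats peaks as independent, which neighbouring peaks of a gene are not, so it is too narrow. Differences above 3 were found at 633 first-intron peaks (17.5%, beside 17.8% of all differential peaks) and differences below -3 at 447 (12.4%, beside 13.3%). These splits depend on the scaling between populations. Centring, which subtracts the median over all differential peaks (-1.19) from every difference, splits the whole set evenly by construction. Under centring, 50.4% of first-intron peaks were higher, 1139 were above 3 and 147 below -3. The median over all first-intron peaks went from -1.18 to 0.0098. Centred counts above 3 and below -3 were not made for the whole set. Without centring, first introns held higher and lower peaks in almost the same proportions as the whole set, and with centring the split was near even in both. The median difference was 2.52 in the higher peaks and -2.04 in the lower ones, against 2.53 and -2.08 over all differential peaks. The median concentration of the higher peaks was 7.12 in *kdrl*:GFP+ cells against 4.35 in the other population, and that of the lower peaks was 4.70 against 6.74. Later introns, with 7707 peaks, had 46.2% higher and 20.2% above 3, whereas promoters, with 899 peaks, had 43.0% higher and 11.1% above 3. All peaks are ones the authors called differential, so that the smallest absolute difference in first introns was 0.78, and first introns without a called peak were not part of the table.

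**Figure D1:**
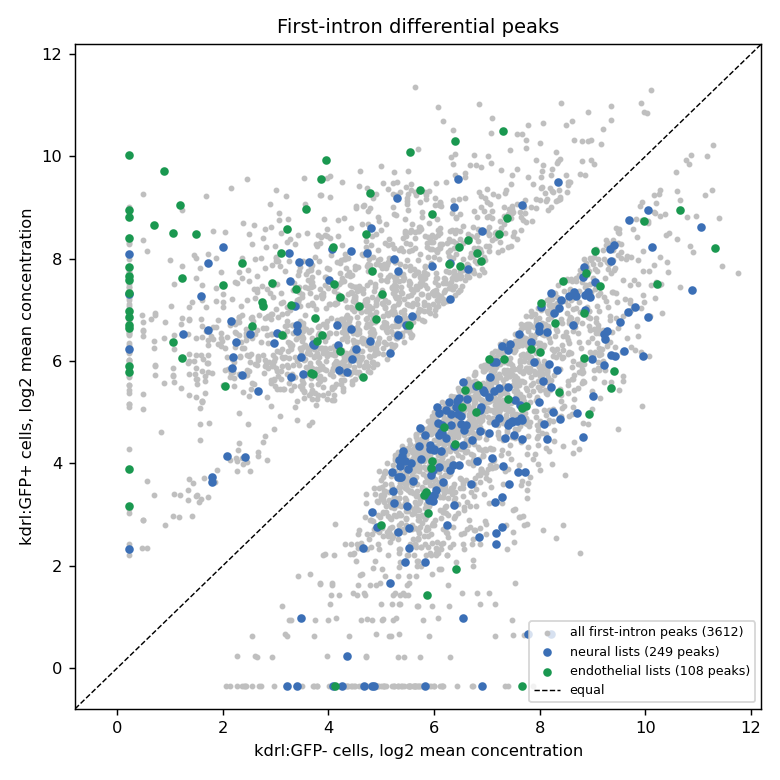
Log2 mean concentration of each of the 3612 first-intron peaks in kdrl:GFP- cells (x axis) and kdrl:GFP+ cells (y axis); green points are peaks hosted by genes of 3 endothelial lists (108 peaks), blue points those of 2 neural lists (249 peaks), and the dashed line marks equal values. The empty band along the line reflects that only called peaks are listed, and the points in a column at 0.22 and in a row at -0.36 are peaks at the lowest value of a population.

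Several of the highest differences were in genes of endothelium. The highest of all was in *crip2*, which encodes a LIM domain protein of the cardiovascular system (chr17:37624866-37625906 on Zv9), where the concentration was 10.02 in *kdrl*:GFP+ and only 0.22 in *kdrl*:GFP- cells. The latter is the lowest value listed for *kdrl*:GFP- cells, shared by 96 first-intron peaks, so that the difference of 9.80 is set by that value. Among peaks above the lowest value in both populations, the first was in *fli1a*, an ETS transcription factor of early endothelium (chr18:46994548-46995606, 2.71 kb from the start site), with 9.71 against 0.89 and a difference of 8.82. Its paralog *fli1b* had 3 first-intron peaks, at differences of 7.85 (chr16:44788856-44789542), 6.49 and 7.62, and all lay far above equality. The adhesion molecule gene *mcamb* (chr15:22693575-22694274) had 8.67 against 0.69, and *esama*, an endothelial adhesion molecule of cell junctions (chr10:32606737-32607933), had 8.51 against 1.05. The other peaks among the 10 highest were in *hpca*, a neuronal calcium sensor (difference 8.79), *mpp1*, a membrane scaffold protein (7.88), *si:ch211-251j10.3* (7.72), *agfg1a* (7.60), the small GTPase gene *rab8b* (7.56) and the Src family kinase gene *yrk* (7.24). In *kdrl*:GFP- cells some of these were near the lowest value too, as *hpca* and *mpp1* at 0.49 and *agfg1a* at 0.55. Their differences and order thus depend on low values, while *rab8b* was at 1.67 and *yrk* at 2.16. With *kdrl*:GFP- cells at the lowest value, the next after *crip2* were *sema3ga*, a secreted semaphorin (8.79), *egfl7* with 2 peaks (8.73 and 8.59) and *csk*, a kinase that restrains Src kinases (8.21).

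Among the lowest differences were several genes of neurons, adhesion and matrix. The lowest difference, -8.24, was in *mdka*, which encodes the growth factor midkine (chr7:40564466-40565482), with -0.36 in *kdrl*:GFP+ cells, the lowest value listed there, and 7.88 in *kdrl*:GFP- cells. That lowest value was shared by 94 first-intron peaks, among them those of the netrin receptor gene *unc5b* (chr13:29363246-29363879, -8.03), the ubiquitin ligase gene *siah2l* (-7.76), *sulf2a*, which edits heparan sulphate (-7.70), and the neural adhesion gene *ncam1a* (-7.27). Above the lowest values, the ephrin gene *efna2* had the lowest difference (chr2:26505703-26506363, 0.65 against 8.21, -7.56). It was followed by a further peak of *ncam1a* (-7.13), the matrix protein gene *tinagl1* (-7.07), *cacng2a*, a subunit that accompanies glutamate receptors (-6.85), the neuronal kinesin gene *kif5c* (-6.53), the actin regulator gene *enah* (-6.52), the phosphoinositide phosphatase gene *inpp4ab* (-6.51), the sodium-calcium exchanger gene *slc8a1b* (-6.09), *pcdh17*, a protocadherin (-5.91), and *tmem47* (-5.87). Most of these were also low in *kdrl*:GFP+ cells, as *slc8a1b* at 0.215 and *kif5c* at 0.63, whereas *inpp4ab* was at 2.25. Their differences and order thus depend on low values as well.

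Single genes of endothelium and of the emergence of blood stem cells were looked up. Such peaks do not test the label of the populations, because each was called differential. Peaks of other endothelial genes, higher and lower, are given below. The *kdrl* gene itself, the Vegf receptor whose promoter drives the transgene, had 1 first-intron peak (chr14:33897805-33898433), at 3.17 in *kdrl*:GFP+ cells and at the lowest value, 0.22, in *kdrl*:GFP- cells. Its difference of 2.95 went with the label, although the concentration was far below the median of the higher peaks. The gene *runx1*, needed for blood stem cells to emerge from endothelium, had 1 peak (chr1:1063269-1064233) at 8.80 against 7.38, a difference of 1.43. The gene *gata2a* hosted none.

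Among 46 listed genes of endothelial junctions, adhesion and matrix, 14 hosted 35 first-intron peaks, and 32 of these were higher in *kdrl*:GFP+ cells (91.4%, beside 44.6% of all first-intron peaks). The median difference of the 35 peaks was 5.02. This list and those below were chosen with earlier results of these data known. Their shares therefore describe the lists and do not test the label of the populations. The list includes *crip2*, whose difference of 9.80 was described above. The secreted endothelial protein gene *egfl7* had all of its 5 peaks higher, at 5.02, 5.55, 8.59, 8.73 and 3.201 in order of distance from exon 1 in a 15.1 kb intron. The peak nearest exon 2 was at 10.50 against 7.30, so that it was open in both populations, whereas the middle pair was at the lowest value in *kdrl*:GFP- cells. In *esama* all 5 peaks were higher, between 5.40 and 7.46, over a first intron of 67.4 kb. Higher in every peak as well were the Ras family gene *rap1b* (4 peaks, 1.71 to 5.36), the laminin receptor subunit gene *itga6b* (5.56 and 7.37), *mmrn2a*, a matrix protein of vessels (3.10 and 3.40), *mcamb* (1.02 and 7.98), *myct1* (5.69), the laminin gene *lama4* (4.84), the junction gene *jam2a* (4.55) and *ccm2*, a gene of the cerebral cavernous malformation complex (2.92). The 3 lower peaks were in *cdh5*, which encodes VE-cadherin (3.04 and -2.20), *heg*, the receptor that holds the Ccm complex at junctions (4.16 and -0.997), and *afap1l1b* (5 of 6 higher, -0.88 to 7.11). Of these, the peaks of *heg* and *afap1l1b* lay so near 0 that their direction turned under centring, and 97.1% of the list was then higher.

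Receptors and ligands of vessels were divided. Of 42 listed genes 17 hosted 40 peaks, and 21 were higher (52.5%, beside 44.6% of all first-intron peaks), with a median of 1.16. Among receptors of Vegf, *kdr* (5.47), *flt4* (3.92 and 2.09), *flt1* (2.30) and *kdrl* were higher in each peak, as were the angiopoietin receptor gene *tek* (2.65) and the Bmp receptor gene *acvrl1* (4.13). The highest peak of the list was in *tbxa2r*, the thromboxane receptor (7.44, and a further one at 3.48), followed by *ramp2*, a partner of the calcitonin receptor family (6.77), whose receptor *calcrla* had 3 higher peaks (1.06 to 4.41). Other genes held both directions within the same intron. In *notch1a*, the Notch receptor of arterial identity, 1 peak stood at 6.43 and the other 2 at -1.92 and -2.03. The lymphatic growth factor gene *vegfc* had 6.39 and -2.02, and *bmpr2b* had 3.79 and -4.48. The co-receptor genes *nrp2b* (3.77) and *nrp2a* (2 of 4 higher, -1.29 to 1.31) and the lipid receptor gene *s1pr2* (1 of 3 higher, -3.88 to 1.76) completed this group. The last pair of genes of the list, *efnb2a* and *unc5b*, were lower in most or all peaks. All 3 peaks of the arterial ephrin gene *efnb2a* were lower (-1.43, -1.78 and -2.58), and *unc5b* had 1 of 9 peaks higher, from -8.03 to 2.06. This gene alone gave 8 of the 19 lower peaks of the list.

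Of 52 endothelial and haematopoietic transcription factors, 8 hosted 33 first-intron peaks, of which 16 were higher (48.5%, beside 44.6%). The median of -0.89 turned positive when differences were centred at the median of all differential peaks. The ETS genes *fli1a* and *fli1b* were described above, and *ets1*, a further member of the family, had 1 of 3 peaks higher (-1.67 to 1.93). The MADS-box factor gene *mef2cb* had all of its 4 peaks higher (3.62, 1.19, 4.59 and 4.30), and *ikzf1*, a factor of lymphoid cells, had 1 peak at 2.93. The zinc finger genes *zeb1b* (3 of 8 higher, -3.97 to 8.19) and *zeb2a* (2 of 12 higher, -4.47 to 2.51) held 15 of the 17 lower peaks.

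**Figure D2:**
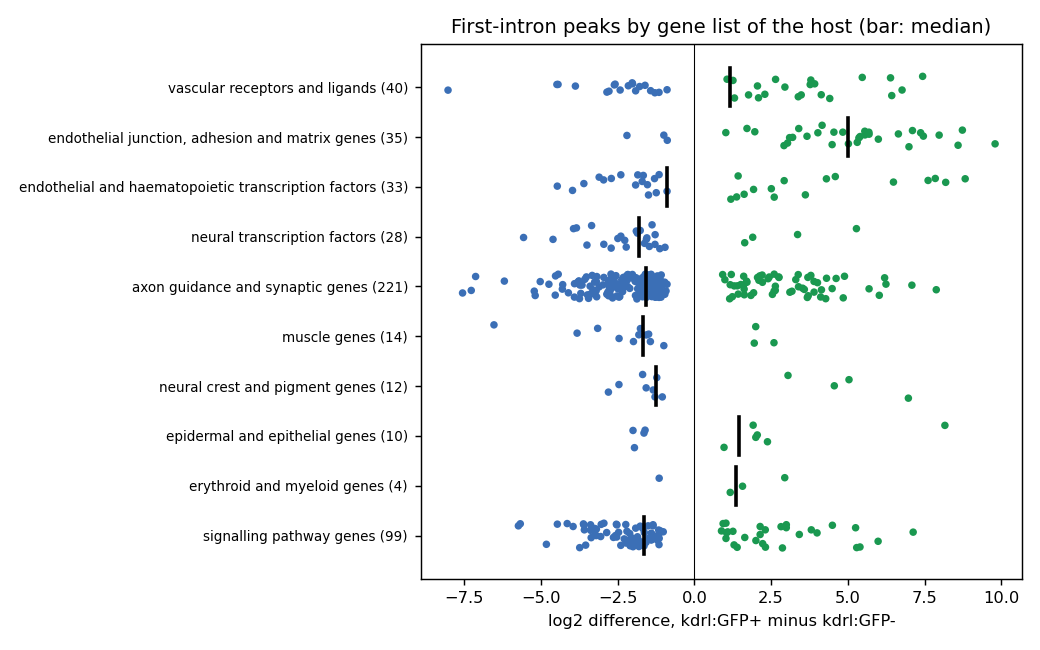
Log2 difference (x axis) of every first-intron peak hosted by a gene of 10 lists, with the number of peaks in parentheses; green points are higher and blue points lower in kdrl:GFP+ cells, and the black bar is the median. The list of endothelial junction, adhesion and matrix genes has 32 of 35 peaks to the right of 0, and the list of neural transcription factors has 24 of 28 to the left. The lists were chosen with earlier results of these data known.

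Lists of neuronal genes had mostly lower peaks. Among 97 neural transcription factors 13 hosted 28 peaks, and 4 were higher (14.3%, beside 44.6% of all first-intron peaks), with a median of -1.81. The lowest were in *foxp2*, a forkhead factor (-5.57), and *pax6a*, a factor of eye and brain (-4.61), and the exceptions included *sox6* (1 of 5 higher, up to 5.28) and *foxp4* (2 of 6 higher, up to 3.36). Of 92 axon guidance and synaptic genes 53 hosted 221 peaks, 60 of them higher (27.1%, beside 44.6%), with a median of -1.57. Genes with many peaks weigh heavily in this share: *robo1* had 0 of 20 higher, *ncam1a* 1 of 19, *cntn1a* 0 of 12, *tenm3* 0 of 11 and *odz4* 0 of 9. Among all host genes with 10 or more first-intron peaks, 27.8% of peaks were higher. Counted by gene, 22 of the 53 hosts had all peaks lower and 11 had all higher. The share without the genes of many peaks was not computed. Here *efna2* had all 3 peaks lower, *ncam1a* 18 of 19 and *gpm6aa*, a neuronal membrane glycoprotein, all 4 (-6.19 to -2.18), whereas *nav3* (6 of 8 higher, up to 7.88) and *magi1b*, a junction scaffold (6 of 7 higher, up to 7.09), stood on the endothelial side. The netrin genes *ntn1a* and *ntn1b* differed from each other: *ntn1a* had 6 of 6 peaks lower (-2.75 to -1.01), and *ntn1b* had both peaks higher (4.14 and 6.24). Centring turned a part of these peaks and gave 35.3% higher for the axon list, still below the 50.4% that it gave for all first-intron peaks.

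The remaining lists had fewer or more mixed peaks. Their counts stand beside 44.6% higher over all first-intron peaks, and most of these lists rest on few genes. Of 128 genes of the Wnt, Fgf, Hedgehog, Bmp and Tgf-beta pathways 36 hosted 99 peaks, with 29 higher (29.3%) and a median of -1.65. The lowest peaks were in the Wnt inhibitor gene *sfrp5* (-5.74 and -2.57) and in *ctnnb1* (-5.67 and -2.20). All peaks were also lower in, among others, *acvr2b* (3 peaks, -4.82 to -2.95) and the Hedgehog co-receptor gene *boc* (5 peaks, -4.47 to -1.20). The Gli transcription factor genes differed: *gli2a* had 4 of 4 lower (-2.24 to -1.11) and *gli1* 9 of 11 lower. In *gli2b* 1 of 7 peaks was higher, and in *gli3* 4 of 8 were (up to 2.995). The Fgf receptor gene *fgfr1b* had 5 of 5 peaks lower (-3.74 to -1.17). In *spred2b*, an inhibitor of Ras signalling, 1 of 2 peaks was higher (-1.68 and 7.13). The gene *wnt5b* had 4 of 6 higher (up to 5.99), and the receptor gene *tgfbr2* had both of its peaks higher (5.25 and 5.40). Muscle genes hosted 14 peaks in 7 genes, 3 of them higher, with *tpm2*, a tropomyosin, lowest (-6.53) and all 6 peaks of the dystroglycan gene *dag1* lower (-3.82 to -1.57). Neural crest genes hosted 12 peaks in 5 genes, 4 of them higher, of which the endothelin receptor gene *ednraa* gave 2 (4.56 and 5.04) and the crest factor gene *tfap2c* gave 2 of its 6 (up to 6.97). Epidermal genes hosted 10 peaks in 6 genes, 6 of them higher, with the polarity gene *llgl2* at 1.91 and 8.16 and *tp63*, the factor of basal epidermis, at -1.95. The erythroid and myeloid list had only 4 peaks in 2 spectrin genes, *spna2* (2 of 3 higher, -1.15 to 2.94) and *sptb* (1.17). Most of its peaks were thus of *spna2*, and nothing on blood cells is drawn from its share. No globin gene of this list hosted a first-intron peak, and whether other cell types contribute to either population was not tested.

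Host genes differed in how many first-intron peaks they held. One peak was found in 900 host genes, and 724 genes held 2 or more, 2712 in all. The share higher in *kdrl*:GFP+ cells was lower in genes with more peaks: 55.3% in the 900 genes with 1 peak, 46.8% in the 325 genes with 2, 45.7% in 232 genes with 3 to 4, 38.8% in 138 genes with 5 to 9 and 27.8% in 29 genes with 10 or more. The same order was found after centring (60.8% to 34.5%). Counted by gene instead of by peak, taking the peak with the largest absolute difference, 53.5% of the host genes were higher. That choice also favours higher peaks, whose differences were larger, so that the figure does not separate the effect of counting by gene. Of the 724 genes with 2 or more peaks, 159 had all of them higher, 217 had all of them lower and 348 held both directions, and after centring the counts were 185, 162 and 377. In 325 of these genes only 2 peaks had to go the same way. No such count was made for later introns or for all differential peaks, so these counts only describe the genes.

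**Figure D3:**
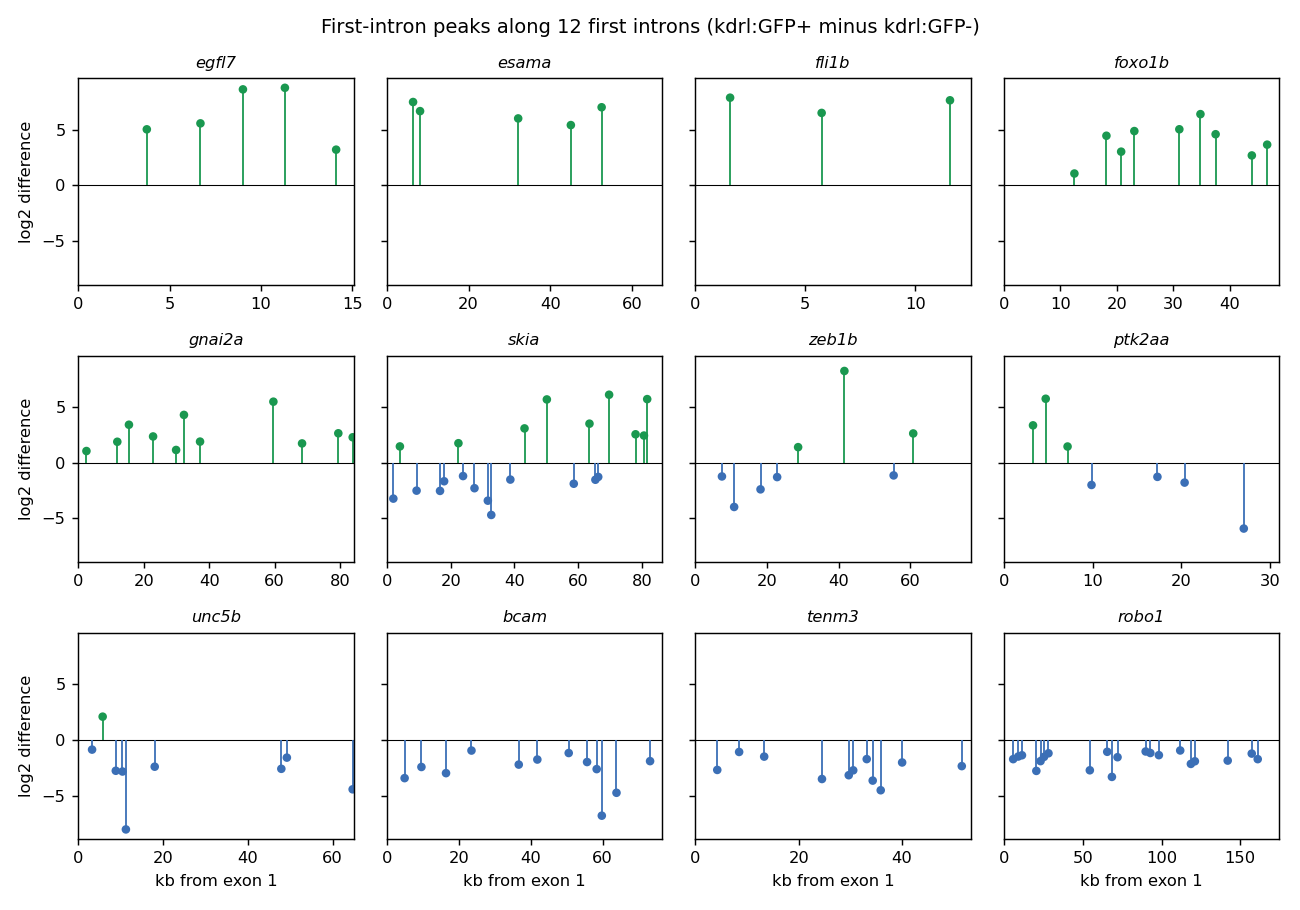
Log2 difference (y axis, kdrl:GFP+ minus kdrl:GFP-) of each first-intron peak at its distance from the end of exon 1 in kb (x axis, which spans the whole first intron) in 12 host genes; green is higher and blue lower in kdrl:GFP+ cells. The top row and gnai2a hold only higher peaks, bcam, tenm3 and robo1 only lower ones, and skia, zeb1b, ptk2aa and unc5b hold both.

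Genes with all peaks in the same direction were named here after their values were seen, unless the rule for named genes covered them. Of 167 genes with 5 or more peaks, 10 had all of them higher and 35 all lower, and after centring these were 14 and 21. Here too, no count over later introns or all differential peaks was made. The G protein gene *gnai2a* had 11 of 11 peaks higher (1.03 to 5.44) over 84.1 kb, and *foxo1b*, which encodes a forkhead factor, had 9 of 9 higher (1.07 to 6.38) over 48.8 kb. Within *foxo1b*, the highest difference was at 6.60 against 0.22 and the lowest at 9.00 against 7.93, so that the intron held a site at the lowest value of *kdrl*:GFP- cells and another with reads in both populations. Higher throughout were, among others, *rhbdf1* (7 peaks, 1.41 to 4.06), the Notch inhibitor gene *numb* (6 peaks, 1.13 to 8.09), *pald1a* (6 peaks, 1.71 to 4.06), *stard8* (6 peaks, 1.36 to 3.69) and the small Maf factor gene *mafk* (5 peaks, 1.26 to 2.76). Lower throughout were, among others, the Slit receptor gene *robo1* (20 peaks over 175 kb, -3.33 to -0.97), the laminin receptor gene *bcam* (12 peaks, -6.80 to -0.98), the axonal contactin gene *cntn1a* (12 peaks, -2.78 to -1.10), and the teneurin genes *tenm3* (11 peaks, -4.53 to -1.10) and *odz4* (9 peaks, -4.11 to -0.999). Under centring some of these turned: 3 of the 20 peaks of *robo1*, 1 of *bcam*, 2 of *cntn1a*, 1 of *tenm3* and 2 of *odz4*.

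The 8 host genes with the most peaks were mostly mixed. The Tgf-beta co-repressor gene *skia* had 9 of its 21 peaks higher within an 86.3 kb intron. On the 5′ side of the midpoint of this intron 9 of 11 peaks were lower, down to -4.69, and on the 3′ side 7 of 10 were higher, up to 6.06. The neural adhesion gene *ncam1a* had 18 of 19 peaks lower over 268 kb, and its single higher peak (3.71) was the one farthest from exon 1, at 244 kb. The redox gene *nxn* had 13 of 16 peaks lower (-4.13 to 3.08), with the 3 higher ones among peaks 45.5 to 55.1 kb from exon 1. The transporter genes *slc25a17* (26 peaks, 15 higher) and *atp8a1* (15 peaks, 8 higher), the ubiquitin ligase gene *cul4a* (21 peaks, 13 higher) and *zgc:113057* (21 peaks, 7 higher) had many peaks nearest to the promoter of another gene. On the gene models of Zv9 the first introns of *cul4a*, *zgc:113057* and *atp8a1* measured 598, 795 and 814 kb and enclosed 29, 12 and 4 other genes. For *slc25a17* no first intron of these models held its peaks, so no length is given. Whether the peaks of these genes act on the named host was not tested. Of the peaks in *cul4a*, 9 in a row that were higher (1.29 to 8.14) lay nearest to the promoter of *pros1*, which encodes the anticoagulant protein S.

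The widest ranges among genes with 3 or more peaks were in *zfpm1*, a partner of Gata factors (-5.45 to 6.76), *zeb1b* (-3.97 to 8.19), *ptk2aa*, the focal adhesion kinase gene (-5.90 to 5.70), and *ncam1a* (-7.27 to 3.71). In *ptk2aa* the 3 peaks nearest exon 1, at 3.27, 4.70 and 7.16 kb, were higher (3.33, 5.70 and 1.43), and the 4 farther ones, from 9.86 to 27.0 kb, were lower (-2.01, -1.28, -1.79 and -5.90). In *zeb1b* the peak 41.6 kb from exon 1 was at 8.41 against the lowest value of *kdrl*:GFP- cells, 0.22, while the peak at 10.8 kb was at 4.97 against 8.94. In *zfpm1* one peak lay at the lowest value of each population: 6.98 against 0.22 at 6.77 kb from exon 1, and -0.36 against 5.09 at 31.0 kb.

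Neighbouring peaks of a host gene went the same way more often when they were close. Of 1985 pairs of adjacent first-intron peaks of one gene, 1397 had the same direction (70.4%), with 87.3% of 189 pairs less than 1 kb apart and 62.5% of 272 pairs more than 20 kb apart. Over all differential peaks these shares were 65.3%, 88.8% and 55.7%, so that first introns followed the whole set at short distance. After centring the shares in first introns were 67.8%, 84.1% and 61.8%.

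In first introns the direction also went with distance to the nearest promoter. Of 214 first-intron peaks within 1 kb of the nearest promoter 52.8% were higher in *kdrl*:GFP+ cells, of 169 at 1 to 2 kb 50.9%, of 552 at 2 to 5 kb 49.8%, of 583 at 5 to 10 kb 46.1%, of 732 at 10 to 20 kb 47.5%, of 885 at 20 to 50 kb 41.1%, of 338 at 50 to 100 kb 34.9% and of 139 beyond 100 kb 28.1%. The latter 2 groups came from 149 and 39 host genes. Peaks of later introns had 71.4% of 21 higher within 1 kb and 49.4% of 81 at 1 to 2 kb. Their share then went from 53.1% at 2 to 5 kb to 34.2% beyond 100 kb. Intergenic peaks departed from this order near promoters: they were lowest in the range nearest to a promoter, 37.0% at 1 to 2 kb. Their share reached at most 45.8%, at 20 to 50 kb. Farther out it fell as well, to 42.9% at 50 to 100 kb and 39.6% beyond 100 kb. After centring the share in first introns went from 68.7% within 1 kb to 32.4% beyond 100 kb. By distance from exon 1 of the host, on the gene models of Zv9, the fall was smaller. It went from 50.0% of 232 peaks up to 1 kb to 35.8% of 193 beyond 100 kb. The peaks within 1 kb of the nearest promoter were wide (median 858.5 bp, against 523 bp for all first-intron peaks) and seldom had a large difference, as 9.35% were above 3 and 3.74% below -3. The 3 higher peaks nearest to 0, in *zbtb16a* (0.78), *stub1* (0.79) and *pros1* (0.79), and the 3 lower ones, in *tcf12* (-0.82), *npm1a* (-0.82) and *fbxl16* (-0.84), all lay within 1 kb of the start site.

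**Figure D4:**
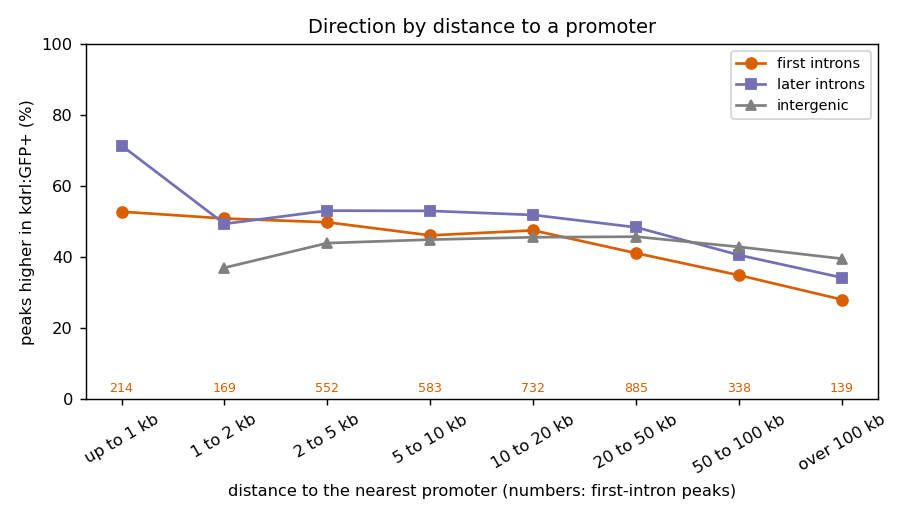
Percent of differential peaks higher in kdrl:GFP+ cells (y axis) by distance to the nearest promoter (x axis, in ranges of kb) for first introns, later introns and intergenic peaks; the orange numbers are the counts of first-intron peaks. First introns go from 52.8% within 1 kb to 28.1% beyond 100 kb.

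By length of the first intron, the share higher was again lower in the longest introns, though not in an even order. For 3332 peaks (92.2%) the host had a first intron in the gene models of Zv9 that held the peak. These introns, of 1528 genes, had a median length of 17.1 kb. In introns up to 1 kb 65.1% of 63 peaks were higher, in those of 1 to 2 kb 53.3% of 45, in those of 2 to 5 kb 60.7% of 183, in those of 5 to 10 kb 49.1% of 267, in those of 10 to 20 kb 51.7% of 538, in those of 20 to 50 kb 47.2% of 1126, in those of 50 to 100 kb 37.5% of 728 and in those over 100 kb 29.3% of 382. The 2 groups of longest introns came from 172 and 57 genes. Among the hosts over 100 kb were *robo1* (0 of 20 peaks higher), *ncam1a* (1 of 19), *cul4a* (13 of 21), *zgc:113057* (7 of 21) and *atp8a1* (8 of 15). At all lengths, 112 peaks lay in first introns of 19 genes that enclose other genes on these models. After centring the share was 77.8% up to 1 kb and 36.9% over 100 kb. Within the intron, 41.4% of the peaks in the 20% next to exon 1 were higher and 50.5% of those in the 20% next to exon 2. Length, distance and the number of peaks per gene go together, and their separate parts were not tested.

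Where a gene had a differential peak in its promoter too, the first intron mostly went with it. Of 177 such genes 145 had the same direction of the median (81.9%), with 66 higher and 79 lower in both, whereas of 794 genes with later-intron peaks 532 had (67.0%). Part of the former figure depends on the scaling, since centring gave 70.6% and 66.2%. The first-intron median was 3.26 where the promoter was higher and -2.06 where it was lower. Both were higher in *esama* (promoter 3.21, first intron 6.65), *egfl7* (3.50 and 5.55), *ramp2* (6.37 and 6.77) and *fli1a* (1.63 and 8.82), and both were lower in *dab1b*, an adaptor of neuronal migration (-2.61 and -4.76), and *cdh15*, the muscle cadherin (-2.17 and -4.31). These pairs were chosen after their values were seen, as were the following ones. In 22 genes the first intron was higher and the promoter lower, among them *mef2cb*, whose promoter peak was at -2.59 while its 4 first-intron peaks had a median of 3.96, *pdzrn4* (-4.04 and 3.60), and *rap1b* (-1.16 and 2.996), whose promoter turned to higher under centring. In 10 genes the promoter was higher and the first intron lower, among them *elmo1*, an activator of Rac signalling, with 4.25 in the promoter and -2.22 and -2.45 in the first intron.

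**Figure D5:**
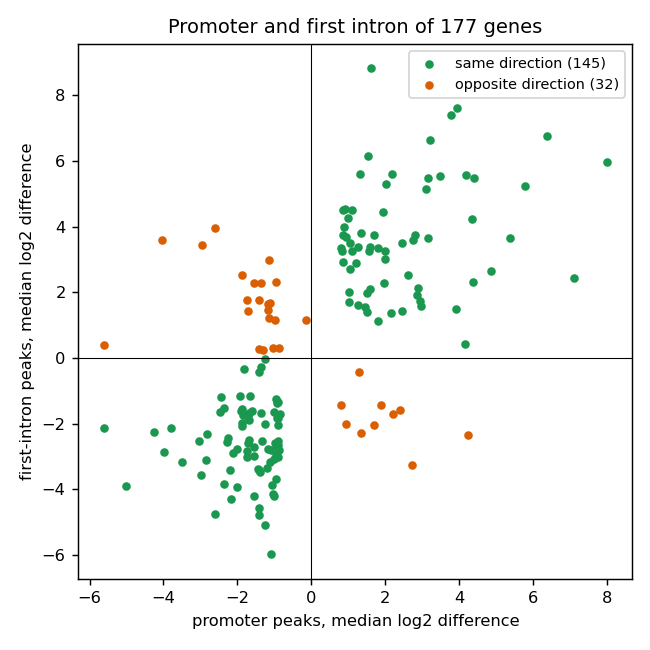
Median log2 difference of the promoter peaks (x axis) and of the first-intron peaks (y axis) for the 177 genes with both, as kdrl:GFP+ minus kdrl:GFP-; each point is 1 gene. Green points, 145 genes, have the same direction in both, and orange points, 32 genes, have opposite directions.

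The 10 first-intron peaks with the highest mean concentration were open in both populations, with differences between -1.91 and 1.198. The highest mean concentration was in *arvcfb*, a catenin (10.23 in *kdrl*:GFP+ against 11.29 in *kdrl*:GFP- cells, difference -1.06), followed by *rabep2* (11.30 and 10.10, 1.198) and the ephrin gene *efna1a* (10.02 and 11.17, -1.16). Of the next 7, *eed*, a Polycomb subunit (1.12), *dyrk1b* (0.83) and *ef1* (0.90) were higher, and *npm1a*, nucleophosmin (-0.82), *rnf34b* (-0.85), *rfx3*, a factor of ciliated cells (-0.98), and *lfng*, which modifies Notch (-1.91), were lower. Centring turned those between -1.19 and 0. Across all first-intron peaks the spread narrowed as the mean concentration grew: 32.5% were above 3 at a mean concentration up to 4, and 6.25% above 8. All differential peaks had 30.8% and 4.72% at these levels.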

How the data were processed

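ATAC-seq libraries were made of *kdrl*:GFP+ and *kdrl*:GFP- cells, with a control library of purified genomic DNA, for which the methods state no transposase treatment and the series notes state tagmentation. Per the submitters' notes and methods, reads were trimmed with Trimmomatic, mapped to Zv9 with BWA 0.7.12, peaks were called per sample against the control, and groups were compared with DiffBind (edgeR method). The comparison rested on 2 libraries of GFP+ and 4 of GFP- cells, whereas the labels give 3 of each. Which libraries entered each mean is not given in the sources used here. The authors state that 2 outlying replicates of GFP+ cells were removed. The deposited concentrations are the log2 of mean normalised read counts per group, made by the authors. The scaling of libraries, the handling of duplicates and any shift of reads for the transposase are not given either. Since the tables hold group means, depth is unknown.

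Peaks were taken by the table's annotation. Host genes were named from the table for 3475 peaks and through the RefSeq accession in the annotation of GRCz12tu for 129, with 8 left unnamed. The host was the nearest promoter for 3287 peaks. The transcript of 141 peaks was placed more than once. The table's fold and p-value columns, and the gene comparison of a further deposited table (columns named WT and Mo, with 6 columns of per-sample values that match no sample here), were not used, except that the Zv9 exon coordinates of the latter gave intron lengths. Sequences are not shown because Zv9 was not at hand.

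Members and lists were chosen with earlier results of these data known. Named were the 10 highest and 10 lowest differences above the lowest values, the 5 highest and 5 lowest at a lowest value, the 8 hosts with the most peaks (ties by symbol), the 10 highest mean concentrations, the extremes of each list (every member for the endothelial lists), *kdrl*, *fli1a*, *runx1* and *gata2a*, the 4 hosts with the widest range, and the peaks nearest 0. Other genes were named after their values were seen. Lists matched the table's symbol or the current one, so that *heg*, *myct1*, *odz4* and *spna2* stand for heg1, myct1a, tenm4 and sptan1. The direction counts, the counts above 3 and below -3, the pairs of adjacent peaks at any distance and the genes going 1 way were tested on simulated data. The intervals and the ranges of distance were not. Python 3.11.15, pandas 2.3.3, numpy 2.4.6, scipy 1.17.1 and matplotlib 3.10.9 were used. Alternatives were other thresholds, centring, 1 peak per gene, other host rules, and leaving out peaks at a lowest value, near promoters or in single-intron transcripts. Leaving out introns over 200 kb or transcripts placed more than once was chosen after seeing the data.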

Additional observations from a re-analysis of the deposited data

How the results depend on the processing

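No paired analysis was possible because the table gives group means and no value per library, and for the same reason no library could be left out. Of 63 values, 49 moved by less than the counting interval or 1.5 times. That interval treats peaks as independent and serves here only as a yardstick. Centring at the median of all differential peaks (-1.19) splits that whole set evenly by construction. It gave 50.4% of first-intron peaks higher, a median difference of 0.0098, 1139 peaks above 3 and 147 below -3. The list shares were then 97.1% (junction), 35.3% (axon) and 100% (erythroid and myeloid, 4 peaks). Taking 1 peak per host gene, the one with the largest absolute difference, gave 53.5% higher and a median of 1.19 in place of -1.18, and this choice itself favours the larger differences of the higher peaks. A threshold of 2 gave 1052 peaks above and 1036 below, and a threshold of 4 gave 370 and 179. Among hosts with 3 or more peaks, 153 of 399 went one way, against 376 of 724 with 2 or more. Counts at thresholds 2 and 4 and counts of hosts were not made for all differential peaks. Whether these splits are particular to first introns was therefore not tested. The share higher was between 44.1% and 45.5% under the 6 other alternatives. Peaks at a lowest value have differences set by that value, and those just above it have differences that depend on low values.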

Other observations

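By chromosome, the share of first-intron peaks higher in *kdrl*:GFP+ cells ran from 32.7% of 217 peaks on chromosome 7 to 56.0% of 109 on chromosome 14, where all differential peaks had 39.5% and 47.2%. Whether these shares differ beyond chance was not tested. By number of introns of the host transcript, the share higher was 38.9% of 180 peaks with a single intron, 45.5% of 946 with 2 to 5, 47.5% of 1088 with 6 to 10, 41.9% of 960 with 11 to 20 and 44.1% of 438 with over 20.

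In some genes the later introns differed from the first one. In *ntn1b*, which encodes a netrin, both first-intron peaks were higher (4.14 and 6.24), while its 6 later-intron peaks were all lower (-7.48 to -2.82). In *arhgef7b*, an exchange factor of Rac and Cdc42, the later-intron pair was higher (5.70 and 9.14), and the 4 first-intron peaks ran from -2.999 to 2.01 with a median of -1.70. These genes were chosen after their values were seen.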
